A study of Mus musculus with 64 samples.

Results

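Transcript levels of 7 cytochrome P450 genes, Cyp2a4, Cyp2a5, Cyp2a12, Cyp2a22, Cyp2b9, Cyp2b10 and Cyp2b13, were described across 4 stages of mouse development. They were picked by symbol from the 23338 genes listed for every sample, with their levels by stage and by sex in adult liver already known, so those levels and differences are given here as a description, without p-values. The difference between male and female fetal livers, and the variation among livers of 1 sex and stage, were not part of that choice and were tested. The study asked where differences between the sexes arise before and after the gonads begin to secrete hormones.

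All 64 samples were from C57BL/6 mice, and no treatment was named for any of them. They comprised 12 whole eight-cell embryos (6 male and 6 female, collected at 2.5 dpc, days post coitum, after natural mating), 4 embryonic stem (ES) cell lines grown in 2i medium, which contains 2 kinase inhibitors that hold the cells in a naive state (2 male and 2 female lines, each derived from an eight-cell embryo), 24 late-gestation fetal livers (12 male, 12 female) and 24 adult livers (12 male, 12 female) from mice of 15 to 20 weeks, killed between 10 and 12 o'clock. The embryos came from 4 litters, and whether fetuses or adults shared a litter was not given in the sources used here. Livers and ES cells went into a stranded total RNA kit, whereas embryos went into an amplifying single-cell protocol, so levels in embryos are not set against those in liver. In a piece of whole liver, fewer cells of a type and less RNA per cell cannot be told apart.

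Cytochrome P450 enzymes of the CYP2A and CYP2B subfamilies are haem proteins of the endoplasmic reticulum that add oxygen to steroids, bile acids, drugs and other foreign compounds, using electrons that come from NADPH through cytochrome P450 oxidoreductase (Por). In liver they are made mainly by hepatocytes. In mice and rats, many hepatic P450 genes are known to differ between adult males and females under the control of growth hormone, which is secreted in pulses in males and more evenly in females and acts through STAT5. Cyp2a5 is the mouse coumarin hydroxylase, Cyp2a4 hydroxylates testosterone, Cyp2a12 hydroxylates bile acids, and Cyp2b10 is the textbook target of the constitutive androstane receptor CAR (Nr1i3), a nuclear receptor activated by phenobarbital.

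The 7 genes lay within 1139 kb of chromosome 7 (GRCm38, chr7:25897658-27036818), and each had 9 exons in its GENCODE transcript. In chromosome order they were Cyp2b10 (chr7:25897658-25926624), Cyp2b13 (chr7:26061388-26096197), Cyp2b9 (chr7:26173350-26210661), Cyp2a4 (chr7:26307192-26315088), Cyp2a5 (chr7:26835339-26843264), Cyp2a22 (chr7:26931631-26939413) and Cyp2a12 (chr7:27029090-27036818), all on the plus strand except Cyp2a22. Several of them are close copies of each other. The coding sequences of Cyp2a4 and Cyp2a5 were 98.4% identical (23 differences over 1482 bases), those of Cyp2a12 and Cyp2a22 97.0%, those of Cyp2b9 and Cyp2b13 92.7%, and Cyp2b10 was 88.7% identical to Cyp2b13.

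The likeness extended upstream of the genes. The pair Cyp2a4 and Cyp2a5 is shown because the sequences just before the start of the gene matched at 245 of 249 bases, while the levels of the genes in adult male liver lay far apart. The stretches are chr7:26306943-26307191 for Cyp2a4 and chr7:26835089-26835337 for Cyp2a5 (GRCm38.p6, plus strand, 5′ to 3′, RefSeq), with the 4 differing bases in capitals.
Cyp2a4 promoter: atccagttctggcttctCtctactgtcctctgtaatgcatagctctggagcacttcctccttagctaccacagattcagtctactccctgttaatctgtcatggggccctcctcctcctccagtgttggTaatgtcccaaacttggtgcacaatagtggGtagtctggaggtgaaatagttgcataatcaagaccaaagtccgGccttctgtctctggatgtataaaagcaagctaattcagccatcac
Cyp2a5 promoter: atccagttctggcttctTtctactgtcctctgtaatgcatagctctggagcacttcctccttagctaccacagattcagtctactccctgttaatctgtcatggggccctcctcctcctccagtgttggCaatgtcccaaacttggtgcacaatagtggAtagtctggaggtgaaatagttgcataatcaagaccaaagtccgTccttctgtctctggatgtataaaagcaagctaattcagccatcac
The pair Cyp2b9 and Cyp2b13 is shown for the same reason, with 141 of 143 bases alike and levels in adult female liver that differed. The stretches are chr7:26173159-26173301 for Cyp2b9 and chr7:26061245-26061387 for Cyp2b13 (same build and strand), with the 2 differing bases in capitals.
Cyp2b9 promoter: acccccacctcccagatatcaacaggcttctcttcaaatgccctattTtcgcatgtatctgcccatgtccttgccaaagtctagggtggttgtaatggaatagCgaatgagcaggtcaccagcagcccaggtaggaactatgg
Cyp2b13 promoter: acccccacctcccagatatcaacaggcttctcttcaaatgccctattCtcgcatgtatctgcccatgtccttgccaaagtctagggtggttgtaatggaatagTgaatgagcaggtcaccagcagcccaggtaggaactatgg
Motifs were sought in the 250 bases before the transcript start of the RefSeq promoter table, which for Cyp2a22, Cyp2b9 and Cyp2b13 reach 27, 59 and 107 bases into the gene as placed above. The letters TATAAA, a core promoter element, were present in 4 of the 7 genes, at 28 bases before the gene start given above in Cyp2a4, 29 in Cyp2a5, 39 in Cyp2a12 and 1 in Cyp2a22, and in 12.97% of 27025 promoters searched on both strands. The nuclear receptor half-site AGGTCA was found in Cyp2b9 and Cyp2b13, at 79 and 31 bases before the gene start, and in 13.8% of promoters. The letters TTCNNNGAA of STAT5 (7.18% of promoters), CAAAGTCCA of HNF4A (0.381%), TGTTTAC of FOXA (3.09%) and TTATGTAA of PAR bZIP factors (0.862%) were not in any of the 7 windows. Only exact matches were counted, with N for any base, so sites that differ from these letters by a base were not sought.

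Close copies share reads, which bears on every level below. For Cyp2a4, 38.8% of windows of 50 bases in the transcript also occurred in another gene, and the shares were 40.8% for Cyp2a5, 27.5% for Cyp2a12, 27.3% for Cyp2b13, 25.7% for Cyp2a22, 11.2% for Cyp2b9 and 9.69% for Cyp2b10. The read length was not given in the sources used here, and with windows of 100 bases the shares were lower, at 14.4% for Cyp2a5, 11.2% for Cyp2a4, 9.29% for Cyp2b13, 6.83% for Cyp2a12, 6.36% for Cyp2a22, 1.18% for Cyp2b9 and 0% for Cyp2b10. Reads aligned to more than 1 place were left out of the gene counts, so the levels rest on the parts that differ and are uncertain between close copies. The parts that set Cyp2a4 and Cyp2a5 apart are short, as in coding bases 550 to 669, shown with their 6 differences in capitals.
Cyp2a4 coding stretch: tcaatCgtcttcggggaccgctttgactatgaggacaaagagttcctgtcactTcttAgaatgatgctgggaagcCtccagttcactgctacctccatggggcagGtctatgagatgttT
Cyp2a5 coding stretch: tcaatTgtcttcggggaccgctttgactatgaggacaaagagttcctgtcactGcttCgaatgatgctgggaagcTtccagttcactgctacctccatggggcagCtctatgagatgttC

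Reads assigned to genes ranged from 1567583 to 4757610 per adult liver, from 5145371 to 8499603 per fetal liver, from 9857929 to 10386931 per ES line and from 4659656 to 7725432 per embryo. Adult livers are therefore the shallowest libraries. Levels are given as CPM (reads of a gene per 1000000 reads on genes, after TMM scaling over the 64 libraries). Before TMM scaling, 3 reads corresponded to between 0.631 and 1.91 CPM in adult livers. The share of reads aligned more than once separated some groups, from 42.2 to 61.1% in adult males, 32.7 to 43.2% in adult females, 23.2 to 26.1% in fetal males and 26.4 to 28.5% in fetal females, and the fetal sexes did not overlap in it. Its part in the results was not tested beyond fits with that share as a covariate. The labels of adult livers and ES lines matched their markers. The summed level of 5 hepatocyte markers was 41265 to 48876 CPM in adult males and 48678 to 59974 CPM in adult females, and that of 3 pluripotency genes was 1087 to 1241 CPM in ES lines and at most 1.67 CPM in any liver.

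In adult liver, Cyp2a4, Cyp2b9 and Cyp2b13 were abundant in every female and close to absent in every male, Cyp2b10 and Cyp2a22 were higher in females but present in both sexes, and Cyp2a5 and Cyp2a12 were abundant in both. Of the near-identical promoter pairs shown above, Cyp2a4 and Cyp2a5 thus fell in different classes, and Cyp2b9 and Cyp2b13 in the same one. Differences are given as log2 of male over female from edgeR's quasi-likelihood fit with its standard error (SE), where a call needs a Benjamini-Hochberg adjusted p below 0.1 and an absolute log2 above 0.5. That rule put 672 of the 10372 genes tested (6.48%) higher in females and 312 (3.01%) higher in males. The values of 6 of the 7 genes met it as well, 1 of them, Cyp2a5, not in every setting, but since the genes were chosen on this contrast nothing is read from that count. All 12 females lay above all 12 males for 5 of the 7 genes and for 1.26% of the genes tested. The median log2 of the 7 genes was -4.50, against -0.0009 over all genes. These values too describe the contrast on which the genes were chosen, and a gene such as Cyp2a4 that passed the filter on low counts through the female livers alone had to differ.

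Cyp2a4, the testosterone hydroxylase, ranged from 759 to 1492 CPM in adult female livers with a median of 1035 CPM, and from 0 to 1.35 CPM in males with a median of 0.361 CPM. Only 13 reads of Cyp2a4 were counted in the 12 male livers together, with no read in 3 of them, against 25502 reads in the 12 females. The ratio of the summed levels was 2494 with an exact 95% counting interval of 1458 to 4685, and the fitted log2 was -11.13 (SE 0.203), the fourth most female value of the 10372 genes.

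Cyp2b13 and Cyp2b9, both known as P450s of the female mouse liver, had the same on-off form. Cyp2b13 ranged from 78.6 to 509 CPM in females with a median of 274 CPM, and 10 of the 12 males had no read, with 3 reads in all and a highest level of 0.719 CPM. The summed female level was 2772 times the male one (counting interval 948 to 13446), with a log2 of -10.85 (SE 0.472). Cyp2b9 ranged from 495 to 932 CPM in females with a median of 722 CPM, and from 0 to 4.84 CPM in males with a median of 0.894 CPM (45 reads in all), a ratio of 481 (counting interval 360 to 660) and a log2 of -8.92 (SE 0.253). Among females Cyp2b13 was the more variable of the pair, with a coefficient of variation of 43.2% against 14.7% for Cyp2b9.

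Cyp2b10, the CAR target, was present in both sexes but higher in females. It ranged from 52.4 to 134 CPM in females with a median of 73.5 CPM, and from 2.15 to 24.1 CPM in males with a median of 8.54 CPM. The lowest female exceeded the highest male, and the log2 was -2.89 (SE 0.248), a ratio of summed levels of 6.95 (counting interval 6.18 to 7.84). Cyp2a22 ranged from 15.05 to 203 CPM in females with a median of 83.0 CPM and from 1.43 to 7.61 CPM in males with a median of 4.37 CPM, a log2 of -4.50 (SE 0.381). The male levels of Cyp2a22 rested on 2 to 20 reads per liver, 135 in all. The groups did not overlap for Cyp2a22 either, although the females alone spanned a wide range, with a coefficient of variation of 57.8%.

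Cyp2a5 and Cyp2a12 were the P450s of the set that adult males expressed in quantity. Cyp2a5 ranged from 349 to 959 CPM in males with a median of 622 CPM and from 344 to 1873 CPM in females with a median of 810 CPM. The ranges overlapped, and 5 of the 12 females lay above the highest male. Its log2 was -0.62 (SE 0.262), and it was -0.59 without a filter on low counts, -0.55 in the livers with at least 40% of mapped reads on genes, and -0.54 and -0.71 with that share or the share of reads aligned more than once as a covariate; it did not meet the rule in these 4 settings. Cyp2a12 ranged from 695 to 963 CPM in males with a median of 859 CPM and from 806 to 1223 CPM in females with a median of 1005 CPM, a log2 of -0.27 (SE 0.0701) smaller than the 0.5 of the rule. Among males its coefficient of variation was 9.92%, against 31.1% for Cyp2a5.

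**Figure D1:**
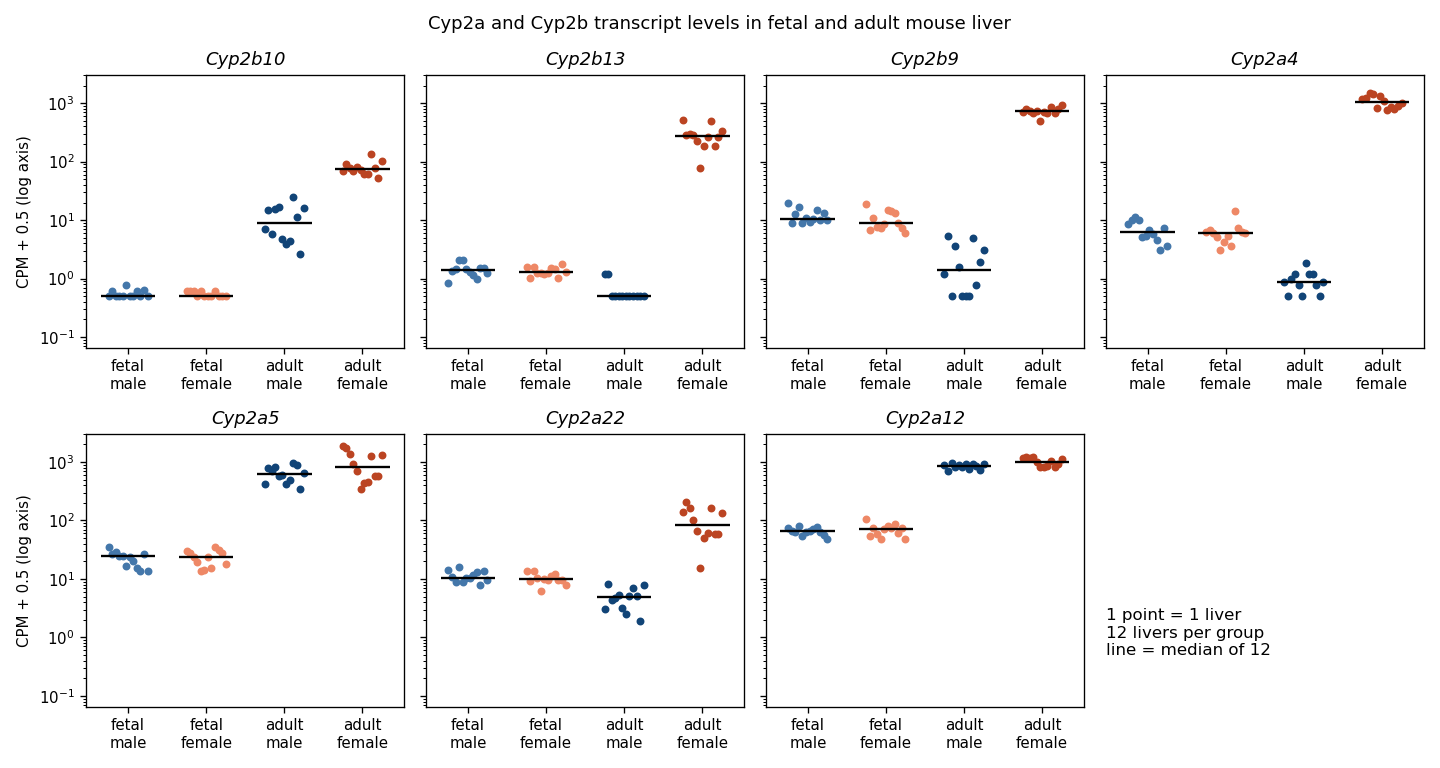
Level of each of the 7 genes in every liver, as CPM plus 0.5 on a log axis, for fetal males, fetal females, adult males and adult females (12 livers each, each point 1 liver). Adult female points of Cyp2a4, Cyp2b9 and Cyp2b13 lie far above every other group while adult male points lie below the fetal ones or among them, and Cyp2a5 and Cyp2a12 are high in adults of both sexes.

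Among the remaining Cyp2 genes of the cluster, Cyp2f2 and Cyp2g1 differed between the sexes in adult liver, in opposite directions. Cyp2f2, the neighbour beyond Cyp2a12, went the other way in adult liver, from a median of 773 CPM in females to 1267 CPM in males without overlap, a log2 of 0.70 (SE 0.0739, edgeR adjusted p = 6.27e-09). That call was lost, at 0.47, with the share of reads aligned more than once as a covariate. Cyp2g1, which sits between Cyp2a4 and Cyp2a5, was low, with 131 reads in the 12 females and 25 in the 12 males, but all 12 females lay above all 12 males (summed ratio 6.66, counting interval 4.32 to 10.7). It was removed by the filter on low counts and so has no test. Cyp2s1 had 16 reads in the 12 females and 14 in the 12 males (summed ratio 1.45, counting interval 0.665 to 3.21). Cyp2b19, Cyp2b23 and Cyp2t4 had no read in any liver.

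**Figure D2:**
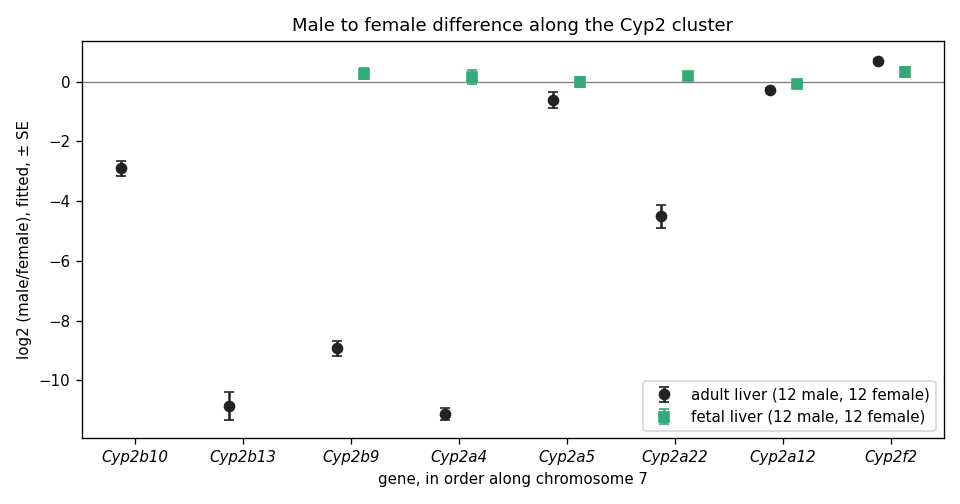
Log2 of male over female with SE bars for the 7 genes and Cyp2f2 in chromosome order, in adult liver (circles) and fetal liver (squares), from edgeR fits over 12 males and 12 females of each stage; genes removed by the filter on low counts have no square. Adult values run from -11.13 for Cyp2a4 to 0.70 for Cyp2f2, and fetal values lie near 0.

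Fetal livers were tested as a comparison that the choice of genes did not use. No difference between the sexes was detected for any of the 7 genes. Of the 5 genes kept by the filter on low counts, edgeR called 0 (adjusted p from 0.279 to 0.975), 0 passed an unadjusted p of 0.05, and DESeq2 called 0, against 0.828% of 12930 genes higher in females and 3.81% higher in males. Cyp2b10 and Cyp2b13 were removed by the filter, and in the fit without it 0 of 7 genes were called.

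Cyp2a4 ranged from 2.55 to 10.6 CPM in fetal males with a median of 5.78 CPM and from 2.61 to 13.8 CPM in fetal females with a median of 5.48 CPM. Its log2 of male over female was 0.17 (SE 0.239, edgeR adjusted p = 0.630), with a 95% interval of -0.30 to 0.64, against -11.13 in adults. Cyp2b9 ranged from 8.46 to 19.4 CPM in males with a median of 10.1 CPM and from 5.44 to 18.4 CPM in females with a median of 8.37 CPM, a log2 of 0.26 (SE 0.186, edgeR adjusted p = 0.298, interval -0.10 to 0.63). Cyp2a22 had medians of 10.1 CPM in males and 9.28 CPM in females, with a log2 of 0.18 (interval -0.06 to 0.41). The sexes overlapped for each of these genes.

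By fitted log2, Cyp2a5 and Cyp2a12 were the closest between the fetal sexes among the genes kept by the filter. Cyp2a5 had medians of 23.97 CPM in males and 22.9 CPM in females (log2 -0.01, SE 0.178, edgeR adjusted p = 0.975, interval -0.36 to 0.34), and Cyp2a12 had medians of 64.4 and 72.0 CPM (log2 -0.07, SE 0.108, edgeR adjusted p = 0.671, interval -0.28 to 0.14). For Cyp2b13 there were 79 reads in the 12 males and 80 in the 12 females, and for Cyp2b10 there were 5 reads in each sex. The signs of these fetal values turned under a covariate for 3 of the genes, and the call did not change in any fit.

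Between late gestation and adulthood levels went one way in females and parted in males. The adult range lay above the fetal range for 7 of 7 genes in females, against 20.3% of the 13026 genes fitted, and below it for 0 of 7, against 29.7%. In males it lay above for Cyp2b10, Cyp2a5 and Cyp2a12 (3 of 7, against 23.4% of genes) and below for Cyp2a4 and Cyp2b9 (2 of 7, against 31.2%), with Cyp2b13 and Cyp2a22 overlapping between stages. The stages are part of the choice of genes, so these counts carry no test.

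Cyp2a4 shows the parting most plainly. From the fetal medians of 5.78 CPM in males and 5.48 CPM in females, it reached 1035 CPM in adult females, a log2 of adult over fetal of 7.64, and was at 0.361 CPM in adult males, a log2 of -3.70 (SE 0.495) and a ratio of summed levels of 0.0687 (counting interval 0.0363 to 0.118). Cyp2b9 had a log2 of 6.32 in females and of -2.84 (SE 0.349) in males, whose summed adult level was 0.129 of the fetal one (counting interval 0.0933 to 0.174). Adult male livers thus held less of both transcripts, in CPM, than livers before birth. Cyp2a22 in males had a log2 of -1.18 (SE 0.344) with a ratio of 0.412, against 3.47 in females, and Cyp2b13 had -2.82 (SE 1.06) in males, resting on 3 adult reads, against 8.44 in females.

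The genes that were higher in adults of both sexes were so by unequal amounts. Cyp2b10 had 5 reads in the 12 fetal livers of either sex, and its adult level was 193 times the fetal level in males (counting interval 82.0 to 599) and 1448 times in females (620 to 4466). The summed adult level of Cyp2a5 was 30.1 times the fetal one in males and 42.5 times in females, and that of Cyp2a12 was 13.1 and 14.5 times. Hepatocyte markers were also higher in adults, since the summed level of the 5 markers lay between 18795 and 25471 CPM in fetal livers. The summed level of 4 erythroid markers was 1334 to 2141 CPM in fetal livers, 184 to 243 CPM in adult males and 13.3 to 50.6 CPM in adult females. Alas2, an enzyme of haem synthesis, ranged from 184 to 242 CPM in adult males and from 13.3 to 50.6 CPM in adult females. The adult sums of the 4 markers were thus nearly all Alas2. The counted levels of the globin genes Hbb-b1 and Hba-a1 were at or near 0 at both stages. Reads aligned more than once were left out of the counts, so these levels do not show that globin RNA was absent. The part of cell composition in the differences between stages and sexes was not tested.

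**Figure D3:**
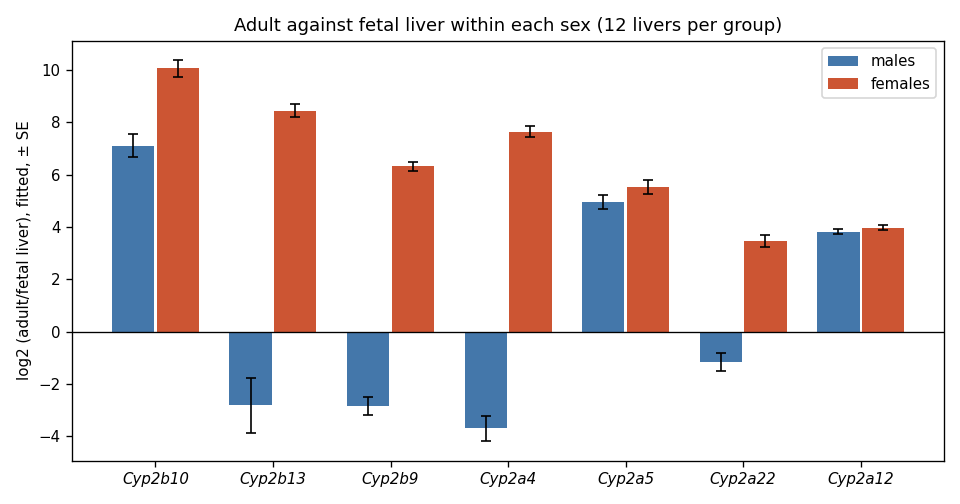
Log2 of adult over fetal liver with SE bars for each of the 7 genes, in males and in females, from an edgeR fit of the 4 liver groups with 12 livers each. Female bars are above 0 for 7 of 7 genes, whereas male bars are below 0 for Cyp2a4, Cyp2b9, Cyp2b13 and Cyp2a22.

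Per kilobase of transcript, the make-up of the set differed between the groups. The summed level of the 7 genes had a median of 66.2 CPM per kb in fetal males, 66.5 in fetal females, 824 in adult males (612 to 1036) and 2311 in adult females (1750 to 3061). Cyp2a12 had a median share of 58.5% in fetal males, 62.2% in adult males and 26.5% in adult females, where Cyp2a4 had the higher mean share (26.99% against 26.11%). In adult males Cyp2a5 held 36.8%, so that these 2 genes made up nearly all of the set. In adult females Cyp2a4 held 25.4%, Cyp2b9 18.1%, Cyp2a5 17.4%, Cyp2b13 5.88%, Cyp2a22 2.05% and Cyp2b10 1.77%.

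The order of levels per kilobase in adult females was Cyp2a12 (median 598 CPM per kb), Cyp2a4 (595), Cyp2a5 (402), Cyp2b9 (385), Cyp2b13 (146), Cyp2a22 (46.2) and Cyp2b10 (38.3), and the ranges of all neighbours in that order overlapped. Within a liver the order was firmer in places, since Cyp2b9 exceeded Cyp2b13 in 12 of 12 females and Cyp2b13 exceeded Cyp2a22 in 12 of 12, whereas Cyp2a12 exceeded Cyp2a4 in 8 of 12 and Cyp2a5 exceeded Cyp2b9 in 6 of 12. In adult males the order was Cyp2a12 (511), Cyp2a5 (309), Cyp2b10 (4.46), Cyp2a22 (2.44), Cyp2b9 (0.476), Cyp2a4 (0.208) and Cyp2b13 (0), and the gap between Cyp2a5 and Cyp2b10 was the only one without overlap. Fetal livers of both sexes shared another order, Cyp2a12, Cyp2a5, Cyp2a22, Cyp2b9, Cyp2a4, Cyp2b13 and Cyp2b10.

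**Figure D4:**
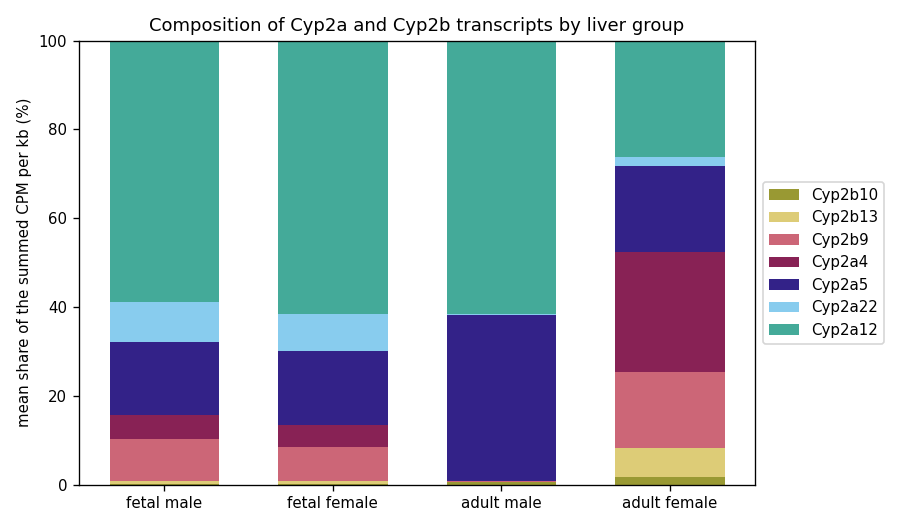
Mean share, in percent, of each of the 7 genes in their summed level in CPM per kb, stacked for fetal males, fetal females, adult males and adult females (12 livers each). Cyp2a12 and Cyp2a5 fill nearly the whole adult male bar, and Cyp2a4, Cyp2b9 and Cyp2b13 are nearly missing from it but prominent in the adult female bar.

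Ratios within the near-identical pairs come from 1 library and so do not depend on its scaling. Per 100 reads of Cyp2a5 there were a median of 26.8 reads of Cyp2a4 in fetal males, 23.001 in fetal females, 0.0626 in adult males and 129 in adult females (62.7 to 391). Per 100 reads of Cyp2b9 there were 8.41 and 8.31 reads of Cyp2b13 in fetal males and females and 36.5 in adult females. Per 100 reads of Cyp2a12 there were 15.9 and 14.1 reads of Cyp2a22 in fetal males and females, 0.524 in adult males and 7.68 in adult females. The balances of Cyp2a4 with Cyp2a5 and of Cyp2a22 with Cyp2a12 thus differed between adult males and females whatever the scaling of the libraries, while Cyp2b9 and Cyp2b13 had too few reads in adult males for a ratio.

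Variation among livers of 1 sex and stage was tested next, by Pearson's r and Spearman's rho of log2(CPM + 0.5) over 12 livers, with two-sided permutation p-values (100000 resamples) adjusted over the 42 pairs of genes and groups with enough reads. By r, 39 were positive and 15 passed an adjusted p of 0.1, all positive, namely 9 of 21 pairs in adult females, 4 of 10 in fetal females, 2 of 10 in fetal males and 0 of 1 in adult males. Of the 15, 12 also passed by rho, and the 3 that did not were the pairs of Cyp2b9 with Cyp2b13, Cyp2a5 and Cyp2a22 in adult females (adjusted p of rho 0.163, 0.185 and 0.221 by permutation). The genes share libraries and depth, so a common technical factor moves pairs together. In adult females r between a gene and the share of reads aligned more than once was 0.19 to 0.51, and in fetal males it was -0.65 for Cyp2a22 and -0.49 for Cyp2b9, a pair called there. In fetal females Cyp2b9 had r = -0.64 with the proportion of mapped reads falling on genes. The part of these shares in the correlations was not tested.

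Among adult females the Cyp2a genes near the end of the cluster varied together. Cyp2a5 and Cyp2a22 had r = 0.92 and rho = 0.92 (permutation, adjusted p = 0.00042), and r was 0.98 without the 2 livers farthest from the median. Cyp2a5 and Cyp2a12 had r = 0.90 (permutation, adjusted p = 0.0021), Cyp2b13 and Cyp2a22 r = 0.88 (0.0027), Cyp2a22 and Cyp2a12 r = 0.83 (0.0021) and Cyp2b13 and Cyp2a5 r = 0.81 (0.0021). Cyp2a4 was in none of the 9 pairs, with r from -0.36 to 0.50. Female liver 18 was the lowest of the 12 for 5 of the 7 genes, with 15.05 CPM of Cyp2a22 and 78.6 CPM of Cyp2b13, while its Cyp2a4 was 1342 CPM. Without it, 4 pairs lost the call, namely Cyp2b13 with Cyp2b9 (r 0.78 to 0.46) and with Cyp2a12 (0.67 to 0.61), and Cyp2b9 with Cyp2a22 (0.76 to 0.45) and with Cyp2a5 (0.61 to 0.43), and 3 gained it, namely Cyp2a4 with Cyp2a12 (r = 0.74) and Cyp2b10 with Cyp2b9 (0.65) and with Cyp2a22 (0.67).

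In fetal livers Cyp2a4 and Cyp2a5 varied together with r = 0.87 in both sexes, with rho = 0.85 in males (permutation, adjusted p = 0.0021) and rho = 0.95 in females (permutation, adjusted p = 0.00042), while r was 0.30 in adult females (permutation, adjusted p = 0.398) and 0.56 there without liver 18 (permutation, adjusted p = 0.164). The difference between these correlations was not tested. Cyp2b9 and Cyp2a22 were also correlated in fetal males (r = 0.74) and fetal females (r = 0.69). In fetal females the highest r was that of Cyp2b9 and Cyp2a12, at 0.89 (permutation, adjusted p = 0.0021). Cyp2a22 and Cyp2a12 were called there too, with r = 0.82 (permutation, adjusted p = 0.0055). In fetal males r of these pairs was 0.56 and 0.59, not called (permutation, adjusted p = 0.141 and 0.116). In adult males only Cyp2a5 and Cyp2a12 had enough reads, with r = 0.14 (permutation, adjusted p = 0.719). Male liver 9 had the highest Cyp2b10 and Cyp2a5 of the 12 males, at 24.1 and 959 CPM, and male liver 11 the lowest of both, at 2.15 and 349 CPM. Liver 11 had the fewest reads on genes of the males, 1608848, and its Cyp2b10 level rested on 3 reads. The correlation of Cyp2b10 with Cyp2a5 in males was not tested.

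**Figure D5:**
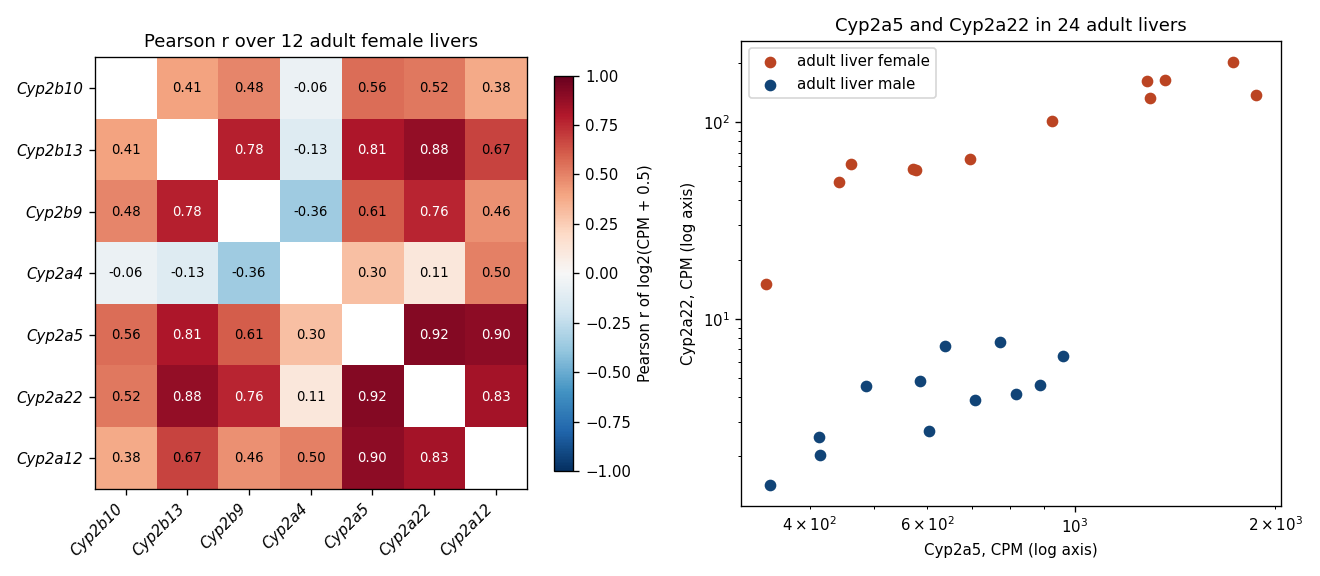
Left, Pearson's r of log2(CPM + 0.5) over the 12 adult female livers for each pair of the 7 genes; right, Cyp2a5 against Cyp2a22 in CPM on log axes for the 24 adult livers, males and females apart. The highest r, 0.92, is that of Cyp2a5 and Cyp2a22, and Cyp2a4 has r from -0.36 to 0.50.

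Genes known to act on hepatic P450s were read from lists, as context for the 7 genes. The lists were chosen with earlier results of these data known, so their counts and p-values are no independent test. In adult liver, 6 of the 12 genes of growth hormone and STAT5 signalling passed the test, 1 higher in males and 5 in females. Their median log2 was -0.33, against -0.0009 over all genes. Of all genes tested, 3.01% were called higher in adult males and 6.48% in adult females. Cux2, a repressor known from female liver, had a median of 36.2 CPM in adult females (19.7 to 65.5) and of 0.698 CPM in adult males (0 to 0.816), a log2 of -6.07 (edgeR adjusted p = 3.99e-18). Its fetal medians were 32.0 CPM in males and 30.2 CPM in females. Bcl6, a repressor known from male liver, was higher in adult males with a log2 of 1.79 (edgeR adjusted p = 0.00350), and the prolactin receptor Prlr and the cofactor Trim24 were higher in females with log2 values of -2.27 and -1.75. In fetal liver 1 of the 12 genes passed, Tox, with a log2 of 0.51. Of all genes tested, 3.81% were called higher in fetal males and 0.828% in fetal females. Fetal calls here and below depend on the fit. Over all genes they fell from 600 to 29 with the proportion of mapped reads falling on genes as a covariate.

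Of 20 receptors and transcription factors known at Cyp2a and Cyp2b genes, 3 were higher in adult females and 1 in adult males (median log2 of the list 0.14). Those higher in females included the oestrogen receptor Esr1 (log2 -1.53) and Nr1i3, which encodes CAR (-0.68, edgeR adjusted p = 6.77e-04), and Foxa3 was higher in males (0.57). In fetal liver 3 of 17 tested passed, Hlf, Onecut1 and Esr1, each higher in males, with log2 values of 0.72, 0.82 and 0.53 (median of the list 0.04, against -0.03 over all genes). Esr1 was therefore called in opposite directions at the 2 stages in these fits without covariates, although the difference between stages was not tested.

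Of 14 other genes that CAR or the related receptor PXR induce, 3 were higher in adult females, Cyp2c37 (log2 -1.38), Ugt1a1 (-0.75) and Abcc4 (-0.73), and 1 in males, Cyp2c55 (0.64), with a median of 0.18 over the list. In fetal liver 1 of 11 tested passed, Aldh1a1, higher in females with a log2 of -1.18, and the median was -0.06. Of 8 genes of electron supply and haem metabolism, Por passed in adult liver, higher in females with a log2 of -0.60 (edgeR adjusted p = 0.00302). Of the same 8 genes, 0 passed in fetal liver with edgeR or DESeq2, and 5 had an unadjusted p under 0.05 (median log2 0.03 in adult and -0.11 in fetal liver).

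Markers of other liver cell types were read beside these results. In adult liver the erythroid gene Alas2 was higher in males (log2 2.79), and 3 of 4 macrophage markers (Clec4f, Cd68, Emr1), the biliary gene Spp1 and the leukocyte gene Ptprc were higher in females with log2 values between -0.77 and -0.51. No marker of hepatocytes (5 tested), endothelium (4) or stellate cells (3) was called in adult liver, with 2, 4 and 1 of them at an unadjusted p under 0.05 in edgeR and 0 called by DESeq2. In fetal liver the biliary markers Epcam, Krt19 and Krt7 were called higher in females by edgeR, 1 of them by DESeq2, and the stellate gene Col1a1 in males. Epcam had medians of 2.78 CPM in fetal males and 2.34 CPM in fetal females, whose highest liver was at 169 CPM. The part of these cell types in the values of the 7 genes was not tested.

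Outside the liver, reads of the 7 genes were few or missing in most libraries. In the 4 ES lines no line had more than 1 read of any of them, where 3 reads corresponded to between 0.289 and 0.304 CPM. In the 12 embryos, 3 of the 7 genes had reads. Cyp2a4 had 55 reads in male embryo 1, 29 in male embryo 5 and 42 in female embryo 10, Cyp2a12 had 66 in male embryo 1 and Cyp2a22 had 6 in male embryo 6, and every other count was 0. A count of 0 allows up to 3 reads, or 0.388 to 0.644 CPM before TMM scaling in these embryos. Reads of single embryos were amplified and are not independent molecules. Elsewhere in the cluster, Cyp2s1 had medians of 126 CPM in male and 149 CPM in female embryos.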

How the data were processed

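RNA-seq was analysed for 64 mouse samples. The deposited values were raw read counts per gene, which the authors obtained with TopHat 2.0.4 and Bowtie2 2.1.0 on mm10, SAMtools 0.1.18, removal of duplicates with Picard 1.98 and HTSeq; the HTSeq version, overlap mode and strand setting were not given in the sources used here. Livers (fetal at 17.5 dpc) and ES cells used the TruSeq Stranded Total RNA kit and embryos an amplifying single-cell protocol. Reads aligned more than once, kept by HTSeq in a row of their own, stayed out of library sizes. Without molecular identifiers, intervals and floors cover counting error only, and p-values measure the spread between these samples.

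Genes were matched by symbol. Counts were tested with edgeR 4.0.16 in R 4.3.3 (TMM, filterByExpr, robust quasi-likelihood F test, Benjamini-Hochberg), separately for fetal and adult livers, without covariates, calling adjusted p below 0.1 and an absolute log2 above 0.5; SE is the absolute log2 over the square root of F. The 4 liver groups were fitted together for stage. CPM used TMM factors over 64 libraries and 0.5 was added before log2. Correlations and counting intervals used SciPy 1.17.1 in Python 3.11.15. Scripts were tested on simulated data. Gene positions and promoter sequences came from RefSeq on GRCm38.p6. Transcript and coding sequences, exon counts and transcript lengths came from GENCODE.

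The 7 genes and the gene lists were chosen with earlier results of these data known. Beyond the 7 genes, the text names the other Cyp2 genes of the cluster, of each list up to 3 called genes per direction and liver with the smallest adjusted p, and the 3 genes most correlated with each of the 7; a few genes that this rule names are not reported here. Alternatives were DESeq2 1.42.0, its size factors, no filter on low counts, no fold threshold, livers with at least 40% of mapped reads on genes (8 of 12 adult males, 8 of 12 adult females, 10 of 12 fetal males, 12 of 12 fetal females, using the study's mapped read totals) or that share as a covariate, 1 sex per fit, no TMM factors and a pseudocount of 2. Chosen after seeing the data were the share of reads aligned more than once as a covariate, leaving out adult female liver 18 and leaving out fetal female liver 21.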

Additional observations from a re-analysis of the deposited data

Results flagged for a closer look

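In 3 of 4 groups of 6 embryos with any read of a gene of the set, 1 embryo lay far from the other 5. Cyp2a4 was at 7.06 CPM (42 reads) in female embryo 10, Cyp2a22 at 0.805 CPM (6 reads) in male embryo 6 and Cyp2a12 at 9.64 CPM (66 reads) in male embryo 1, and in each case the other 5 embryos of that sex had no read. With reads in 1 embryo only, the gap to the other 5 was the whole range, whatever the count. Such a group passes the limit used here by construction, so these flags carry no chance rate.

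Cyp2a4 and Cyp2b9 moved in opposite directions between fetal and adult liver in the 2 sexes, with no overlap between stages in either sex. The log2 of adult over fetal was -3.70 in males and 7.64 in females for Cyp2a4, and -2.84 in males and 6.32 in females for Cyp2b9. The difference between the sexes in this change was not tested, since both genes were chosen on it.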

How the results depend on the processing

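No paired analysis was possible because male and female livers of a stage share no replicate number, and the numbers shared between stages are serial numbers. Of all 10372 genes tested in adult liver 984 were called, and the count was 1518 without a filter on low counts, 608 with the share of reads aligned more than once as a covariate and 3400 by adjusted p alone. In fetal liver 600 genes were called, against 1057 without the filter, 29 with the proportion of mapped reads falling on genes as covariate and 4807 by adjusted p alone. The share of fetal calls higher in females was 17.8%, against 39.0% without the filter and 37.9% and 81.4% with the 2 covariates, and the adult share was 68.3%, against 55.9% with the share of reads aligned more than once. Fetal log2 values that turned were Cyp2a5 (0.010) and Cyp2s1 (-0.054) in livers with at least 40% of mapped reads on genes, Cyp2b9 (-0.20), Cyp2a4 (-0.026), Cyp2a22 (-0.20) and Cyp2f2 (-0.0098) with that share as a covariate, and Cyp2a4 (-0.16), Cyp2a22 (-0.30) and Cyp2s1 (-1.06) with the share of reads aligned more than once; none of these was called in any fit, and the cause was not tested. Fetal adjusted p of the 7 genes ranged from 0.264 to 0.998 over the fits. Correlated pairs numbered 15, and 13 to 15 under 5 alternatives. Without TMM factors the adult medians of Cyp2a12 (684 CPM in males, 828 CPM in females) and Cyp2b9 (596 CPM in females) moved by more than 1 SD. Depth limits the adult male levels of Cyp2a4 and Cyp2b13, which rest on 13 and 3 reads. It also limits the lowest male levels of Cyp2a22 and Cyp2b10, which rest on 2 and 3 reads.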

Other observations

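Among adult female livers, the genes whose levels were most like those of the set over 12 livers included a regulator with a daily rhythm. For Cyp2a5 they included Lhpp (r = 0.96) and Dbp (0.96), where Dbp is known as an output gene of the circadian clock, and for Cyp2a22 they were Ces1g (0.96), Aldh1a1 (0.95) and Dbp (0.95). Dbp itself ranged from 2.91 to 105 CPM in adult females with a median of 21.2 CPM and from 3.58 to 102 CPM in adult males with a median of 47.2 CPM. In adult males r with Cyp2a5 was 0.80 for Dbp and 0.47 for Lhpp. The values in adult females are among the highest of about 10362 correlations each and are given as likeness only, without a test, and no hour of death is given per mouse in the labels.

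Other genes had other neighbours in this sense. Cyp2a12 was most like Thnsl2 (0.98), Aspa (0.97) and Suclg2 (0.96), Cyp2b13 like Dhdh (0.95), Lrtm1 (0.94) and Aldh1a1 (0.93), and the genes most like Cyp2b9 included Cyp2c37 (0.87) and Tbcel (0.86). Cyp2a4 was most like Aurkaip1 (0.91), the ribosomal protein gene Rpl35 (0.89) and Mrpl54 (0.89), and Cyp2b10 like Mlst8 (0.91), Macrod1 (0.87) and Glrx2 (0.85). In adult males Cyp2a5 was most like Dip2c (0.91), Mgmt (0.91) and Tbc1d16 (0.90), and Cyp2a12 like Zdhhc6 (0.94), Bag2 (0.92) and Ndufa4 (0.87).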
